A study of Mus musculus with 8 samples.

Results

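The 10 genes followed here, apart from Ogt, build or modify the glycans of the T cell surface. All 10 were measured in activated mouse CD8+ T cells with and without transforming growth factor β (TGFβ). They were chosen by gene name: the N-glycan enzymes Man1a, Mgat4a and Mgat5, the sialyltransferases St3gal1, St3gal4, St3gal6 and St6gal1, the selectin ligand enzymes Gcnt1 and Fut7, and Ogt. All 10 were found, each once, among the 47069 gene identifiers of the deposited expression table, and all 10 were expressed highly enough to be tested.

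The cells were OT-I T cells, whose transgenic receptor recognises ovalbumin, taken from lymph nodes of mice given the genotype WT. In the OVA-T4 + TGFβ group they were activated for 24 h with 10 nM of the low affinity peptide SIITFEKL (OVA-T4) together with 5 ng/ml recombinant TGFβ, and in the OVA-T4 group with the same peptide alone. Each group had 4 biological replicates, and both were peptide-activated, so neither shows resting cells. Beyond the genotype WT, the study names OT-I and OT-I Rag1-/- mice, and which of them gave these cells is not stated. The lymph node cells were put in culture as a suspension, the labels name no sort, and whether the replicates came from separate mice is not given in the sources used here, so the p-values measure the spread between these samples. Messenger RNA (mRNA) was enriched on oligo(dT) and sequenced, and the values are FPKM, counted fragments scaled to the length of the gene and the depth of the library.

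Library totals, recovered from the table as whole reads, were 35586261 to 40040249 in OVA-T4 + TGFβ cells and 35839293 to 41597929 in OVA-T4 cells. The members had between 115 reads (Gcnt1, in OVA-T4 cells) and 15807 reads (Ogt, in OVA-T4 + TGFβ cells) in a library. The 10 markers of CD8 T cells summed to 3658 to 3862 FPKM with TGFβ and 3039 to 3391 FPKM without. Markers of other cells were low but not equal between the groups. The 10 macrophage and monocyte markers summed to 11.0 to 47.7 FPKM with TGFβ against 4.84 to 13.6 FPKM without, with Mrc1 at 0 in all 8 libraries. Of the 4 that were tested, Lyz2 (16.5 ± 10.4 against 3.83 ± 2.26 FPKM, limma adjusted p = 0.0141) and C1qb (1.09 ± 1.03 against 0.0852 ± 0.0781 FPKM, adjusted p = 0.0394) were called higher with TGFβ, and Cd68 and Cd14 did not pass. The 10 B cell markers summed to 10.5 to 12.4 FPKM against 3.86 to 5.34 FPKM, nearly all of it Cd79a and Cd79b, with the defining marker Ms4a1 at 0 throughout. The 10 dendritic cell markers summed to 31.4 to 48.8 FPKM against 14.0 to 31.1 FPKM. Of the 5 tested, 4 were called higher with TGFβ and Batf3 did not pass. The 4 were Itgax (1.74 ± 0.240 against 0.262 ± 0.122 FPKM, limma adjusted p = 5.44e-05), H2-Aa (9.79 ± 1.67 against 4.22 ± 1.63 FPKM, adjusted p = 0.00281), H2-Ab1 and Cd74. The 6 CD4 T and NK cell markers summed to 5.46 to 9.31 FPKM against 4.88 to 8.11 FPKM. The 7 stromal and endothelial markers summed to 21.7 to 30.5 FPKM against 25.4 to 34.3 FPKM. The part of these cells in the results was not tested. In such bulk samples fewer cells of a type and less RNA per cell cannot be told apart.

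As background, glycoproteins receive a preformed oligosaccharide on asparagine in the endoplasmic reticulum, which Golgi mannosidases trim and N-acetylglucosaminyltransferases then branch. The branches are extended with galactose and N-acetyllactosamine and capped with sialic acid or fucose, while O-glycans are started on serine or threonine and grown sugar by sugar. In T cells these sugars set the binding of galectins, selectins and sialic acid receptors, and their makeup changes with activation. OGT is the exception among the 10, since it works in the nucleus and cytosol and adds single N-acetylglucosamine sugars (O-GlcNAc) to proteins inside the cell.

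In TGFβ-treated cells the FPKM of 8 of the 10 enzymes was higher and that of 1 lower, with 1 that did not pass the test. FPKM is relative to the whole library, so amounts of mRNA per cell were not measured. Mgat5 rose most, to 24.0 ± 0.595 FPKM in OVA-T4 + TGFβ cells against 8.78 ± 0.789 FPKM in OVA-T4 cells (SD, n = 4 each). Mgat4a, Man1a, St3gal6, St6gal1, Gcnt1, Fut7 and Ogt were also higher, St3gal4 was lower and St3gal1 did not pass. Changes were tested with limma on log2(FPKM + 0.5) over the 12879 genes that averaged 0.5 FPKM or more, two-sided, and called at a Benjamini-Hochberg adjusted p under 0.05. By the same test 30.7% of all genes tested were called higher and 20.2% lower. The median log2 fold change was 0.54 over the 10 enzymes and 0.077 over all genes tested. In 7 members every TGFβ-treated library lay above every OVA-T4 library, which held for 29.1% of all genes tested, and in 1 member every treated library lay below, which held for 18.9% (48.1% in either direction). The 2 members whose libraries overlapped between the groups were Man1a and St3gal1.

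**Figure D1:**
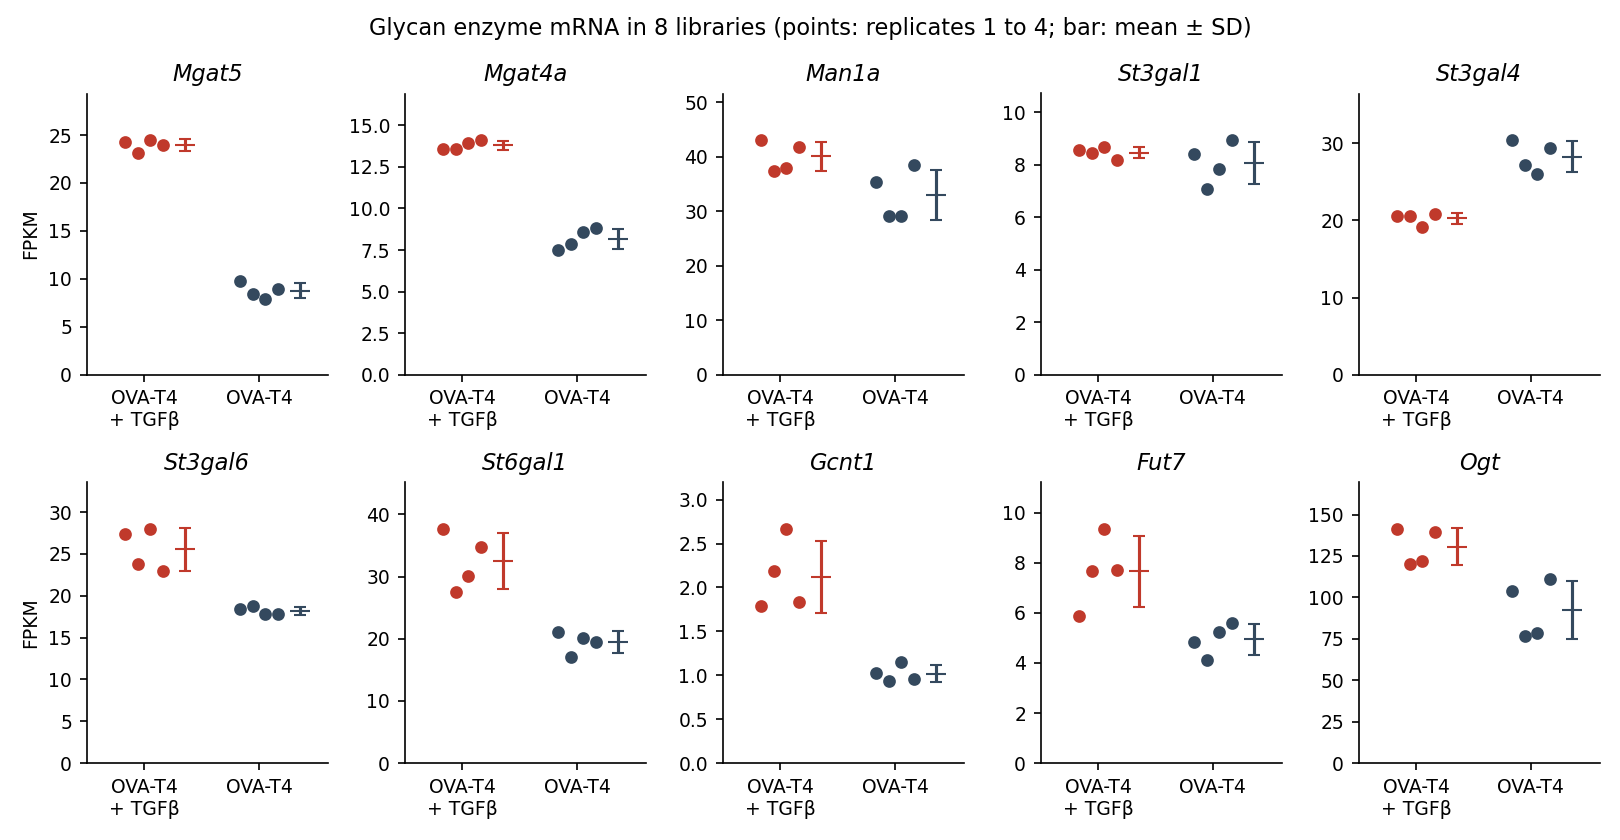
FPKM of the 10 enzymes (vertical axes, each from 0) in the 4 OVA-T4 + TGFβ libraries, left in each panel, and the 4 OVA-T4 libraries, right; points are replicates 1 to 4 and the bar beside them is the mean ± SD. The groups overlap in Man1a and St3gal1 and are separate in the other 8, with St3gal4 the member that lies lower with TGFβ.

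The bases before the transcription start are shown for the member that rose most, the least expressed member and the member that fell, since TGFβ signals through SMAD proteins that bind short motifs in DNA. Capitals mark the SMAD-binding element, searched as CAGAC and, for the other strand, GTCTG. The sequences are the 250 bases before a start site annotated by RefSeq on GRCm38.p6, the farthest upstream where a gene has several, written 5′ to 3′ on the gene's strand. They lie at chr1:127204736-127204985 (Mgat5, plus strand), chr19:17372845-17373094 (Gcnt1, minus strand) and chr9:35116865-35117114 (St3gal4, minus strand).
Mgat5: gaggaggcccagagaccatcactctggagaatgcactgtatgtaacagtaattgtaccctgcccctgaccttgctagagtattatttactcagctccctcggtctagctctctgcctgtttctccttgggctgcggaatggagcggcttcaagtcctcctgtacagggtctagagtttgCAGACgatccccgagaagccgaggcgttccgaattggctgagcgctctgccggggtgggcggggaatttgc
Gcnt1: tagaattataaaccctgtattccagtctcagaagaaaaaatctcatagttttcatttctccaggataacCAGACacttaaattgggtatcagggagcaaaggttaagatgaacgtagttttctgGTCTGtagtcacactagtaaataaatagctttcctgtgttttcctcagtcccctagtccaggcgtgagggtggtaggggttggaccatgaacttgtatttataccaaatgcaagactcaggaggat
St3gal4: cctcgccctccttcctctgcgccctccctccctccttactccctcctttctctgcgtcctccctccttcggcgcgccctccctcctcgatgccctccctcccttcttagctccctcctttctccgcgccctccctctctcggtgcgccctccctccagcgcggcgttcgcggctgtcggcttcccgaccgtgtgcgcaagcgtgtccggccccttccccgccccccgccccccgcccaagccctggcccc

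The Mgat5 sequence holds 1 match, 67 bases before the start, and the Gcnt1 sequence holds 2, at 177 and 122 bases. No match lies in the St3gal4 window, where 72.8% of bases are G or C, compared with 56.0% in Mgat5 and 40.4% in Gcnt1. RefSeq start sites were found for 9 of the 10 members, St3gal1 being the exception, with 17 start sites in all. Of these, 6 (35.3%, in 5 members) hold the motif, against 42.2% of 32851 windows of the same length before RefSeq starts of the mouse. The E-box CACGTG, the same on both strands and bound by MYC among other factors, is in 0 of the 17 and in 6.02% of all windows. These matches describe the letters only and were not tied to the expression values by any test.

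The members Man1a, Mgat4a and Mgat5 act on N-glycans in the Golgi. Mgat5 (ENSMUSG00000036155, chr1:127205015-127488336, plus strand, GRCm38) encodes N-acetylglucosaminyltransferase V, whose branch is a preferred carrier of the N-acetyllactosamine chains that galectins bind. Its level was 24.3, 23.1, 24.4 and 24.0 FPKM in the OVA-T4 + TGFβ libraries, against 9.78, 8.44, 7.93 and 8.97 FPKM in the OVA-T4 libraries. The groups stood far apart, and the treated libraries lay closer together than the untreated ones. The log2 fold change was 1.40 ± 0.07 (standard error, SE), 2.64-fold on that scale (limma adjusted p = 1.26e-06), from 3467 to 4099 reads a library with TGFβ and 1275 to 1576 without.

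Mgat4a (ENSMUSG00000026110, chr1:37439340-37541016, minus strand) encodes N-acetylglucosaminyltransferase IVa, which starts another branch of complex N-glycans. It had 13.6, 13.6, 14.0 and 14.1 FPKM in OVA-T4 + TGFβ cells, against 7.51, 7.85, 8.56 and 8.82 FPKM in OVA-T4 cells. The groups did not overlap, and as with Mgat5 the treated libraries were nearly equal. This was a log2 fold change of 0.72 ± 0.07 (SE, limma adjusted p = 3.54e-05).

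Man1a (ENSMUSG00000003746, chr10:53904785-54076609, minus strand) encodes a Golgi mannosidase that trims the oligosaccharide before branching. It had 43.0, 37.4, 38.0 and 41.7 FPKM in OVA-T4 + TGFβ cells, against 35.3, 29.1, 29.0 and 38.4 FPKM in OVA-T4 cells. Replicates 1 and 4 were the high ones in both groups, and OVA-T4 replicate 4 lay above the treated replicates 2 and 3. Its log2 fold change of 0.28 ± 0.10 (SE) passed narrowly (limma adjusted p = 0.0366), and with the replicate number as a block the adjusted p was 0.00303. The call was lost with median of ratios scaling (adjusted p = 0.0947), with quantile normalization (0.0558), with no filter on low values (0.0729) and without OVA-T4 + TGFβ replicate 1 (0.0978), OVA-T4 + TGFβ replicate 4 (0.0809), OVA-T4 replicate 2 (0.0985) or OVA-T4 replicate 3 (0.0936).

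The other enzymes of this stretch of the pathway gave no call in the direction of these members. Of 12 further genes for N-glycan trimming and branching that were tested, 0 were called higher, 5 lower and 7 did not pass, and their median log2 fold change was -0.036. Man1c1, a further Golgi mannosidase just below the limit for testing, was at 0.812 ± 0.215 FPKM with TGFβ against 0.182 ± 0.0549 FPKM without, with no overlap. Mogs, the glucosidase that removes the outermost glucose, had the largest change, at 117 ± 1.15 FPKM with TGFβ against 153 ± 13.3 FPKM without (log2 fold change -0.38, limma adjusted p = 7.95e-04). Man2a1, Golgi mannosidase II, which acts after Man1a, was also lower (log2 fold change -0.30, adjusted p = 0.00760), a call lost with replicates 2 and 3 alone (adjusted p = 0.146). Mgat5 to Mgat4a, taken within each library, was 1.79, 1.70, 1.75 and 1.70 with TGFβ against 1.30, 1.07, 0.926 and 1.02 without. Mgat5 to Man1a was 0.565 to 0.644 with TGFβ against 0.234 to 0.290 without. The fold between the groups in such a ratio does not depend on gene length or on the scaling of a library, and was 1.62 and 2.24 for these 2 ratios. They were chosen after the values were seen and are given as a description.

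**Figure D2:**
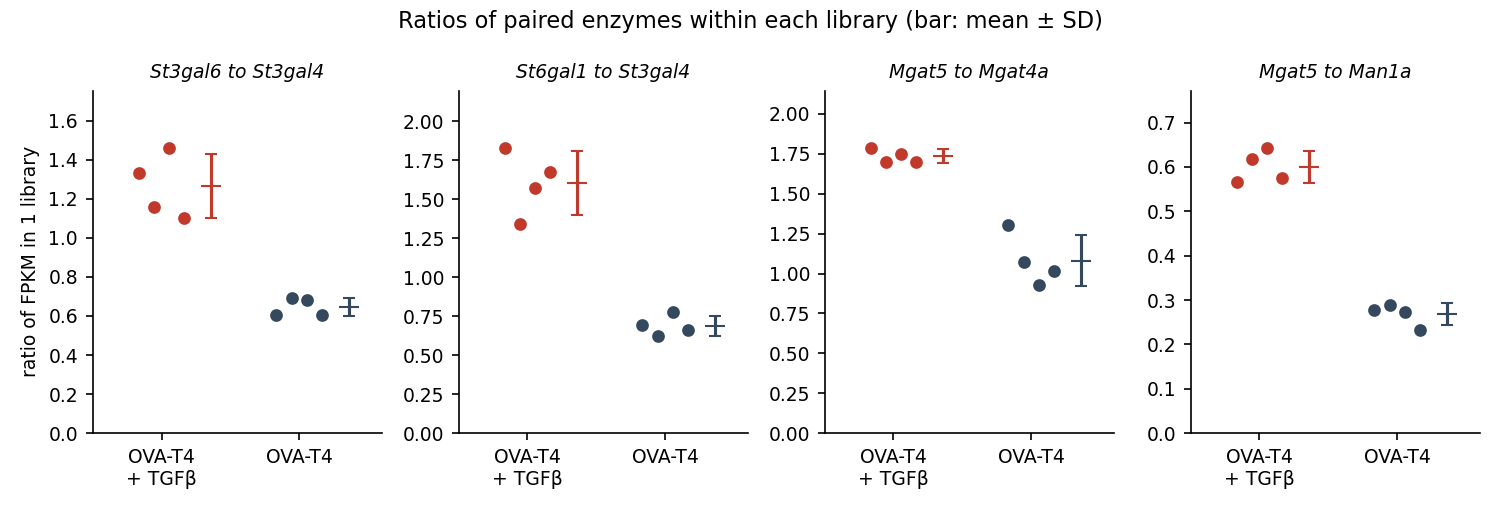
Ratio of the FPKM of 2 enzymes within each library (vertical axes, from 0), with the 4 OVA-T4 + TGFβ libraries left and the 4 OVA-T4 libraries right in each panel; points are replicates 1 to 4 and the bar is the mean ± SD. All 4 ratios are separate between the groups and higher with TGFβ, with St6gal1 to St3gal4 at 1.34 to 1.83 against 0.626 to 0.774.

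The sialyltransferases moved in different directions. St6gal1 (ENSMUSG00000022885, chr16:23224740-23360350, plus strand) caps N-glycans with the form of sialic acid linkage that CD22 binds and that galectins bind poorly. It had 37.7, 27.6, 30.1 and 34.7 FPKM in OVA-T4 + TGFβ cells, against 21.02, 17.0, 20.2 and 19.5 FPKM in OVA-T4 cells. The lowest treated library was above the highest untreated one, although the treated libraries differed among themselves by more than counting error, with a coefficient of variation (CV) of 13.9% against 1.98% from counting. St6gal1 rose with a log2 fold change of 0.72 ± 0.11 (SE, limma adjusted p = 4.52e-04). B cells are known for high St6gal1. Of their 10 markers, Ms4a1 was at 0 in all 8 libraries, while Cd79a (2.16 ± 0.0453 against 0.420 ± 0.168 FPKM, adjusted p = 3.76e-05) and Cd79b (8.89 ± 0.840 against 4.23 ± 0.561 FPKM, adjusted p = 7.79e-05) were higher with TGFβ, without overlap. Their part in the change of St6gal1 was not tested.

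St3gal6 (ENSMUSG00000022747, chr16:58468125-58524243, minus strand) and St3gal4 (ENSMUSG00000032038, chr9:35046576-35119268, minus strand) encode enzymes that sialylate N-acetyllactosamine ends and can serve the synthesis of selectin ligands. St3gal6 had 27.4, 23.8, 27.99 and 22.9 FPKM with TGFβ, against 18.4, 18.8, 17.8 and 17.8 FPKM without. St3gal4 had 20.6, 20.6, 19.1 and 20.8 FPKM with TGFβ, against 30.4, 27.2, 26.1 and 29.4 FPKM without. The 2 genes were thus separate between the groups in opposite directions. St3gal6 rose with a log2 fold change of 0.47 ± 0.07 (SE, limma adjusted p = 6.76e-04). St3gal4 fell by 0.47 ± 0.06 on the log2 scale (SE, adjusted p = 2.78e-04). Within a library, St3gal6 to St3gal4 was 1.33, 1.16, 1.46 and 1.10 with TGFβ against 0.604, 0.691, 0.683 and 0.606 without, a 1.95-fold difference that is likewise a description.

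Both genes share exonic bases with a gene on the other strand, and whether the counting used strand is not given in the sources used here. St3gal4 shares 412 bases with 4930581F22Rik, a transcript that was itself higher with TGFβ (15.6 against 7.85 FPKM, log2 fold change 0.98, limma adjusted p = 0.00178), opposite to St3gal4. St3gal6 shares 1603 bases with Dcbld2, whose mean over the 8 libraries was 0.494 FPKM. Without strand, reads of such partners cannot be told apart.

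St3gal1 (ENSMUSG00000013846, chr15:67102875-67176830, minus strand) sialylates core 1 O-glycans, and mice without it lose CD8 T cells in the periphery. Its level was 8.57, 8.45, 8.67 and 8.18 FPKM with TGFβ, against 8.41, 7.09, 7.83 and 8.93 FPKM without. The groups overlapped, and the untreated libraries held both the lowest and the highest value. The log2 fold change of 0.070 ± 0.080 (SE, limma adjusted p = 0.490) was close to the median of all genes tested, 0.077, and its sign turned under median of ratios scaling (-0.027) and quantile normalization (-0.10).

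The 6 ST3Gal genes summed to 67.0 ± 2.41 FPKM with TGFβ and 71.0 ± 3.55 FPKM without (SD, n = 4 each), with ranges that overlapped. Their makeup differed: St3gal4 was 30.3% ± 1.93 of the sum with TGFβ and 39.8% ± 0.827 without, and St3gal6 was 38.0% ± 2.70 with TGFβ and 25.7% ± 1.39 without. These shares depend on the gene lengths behind the FPKM values and were not tested. Of 8 other sialyltransferases tested, 1 was called higher, 2 lower and 5 did not pass (median log2 fold change -0.11). The one that rose was St8sia1, the ganglioside GD3 synthase, at 53.7 ± 3.00 FPKM with TGFβ against 19.6 ± 3.04 FPKM without (log2 fold change 1.44, limma adjusted p = 8.42e-06). St3gal5, the GM3 synthase that makes its substrate, fell by 0.77 on the log2 scale to 2.85 ± 0.788 FPKM, against 5.07 ± 0.191 FPKM without TGFβ (adjusted p = 0.00453). The other to fall was St8sia4, a polysialyltransferase (log2 fold change -0.73, adjusted p = 8.58e-04), named after its values were seen.

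Genes for the supply and removal of sialic acid were mostly higher, 6 of 11 tested, with 1 lower and 4 that did not pass (median log2 fold change 0.44). Cmah, which turns N-acetylneuraminic acid into the N-glycolyl form in mice, was at 65.9 ± 5.35 FPKM with TGFβ against 30.9 ± 5.05 FPKM without (log2 fold change 1.09, limma adjusted p = 6.81e-05). Siae, an esterase that removes O-acetyl groups from sialic acid, was at 5.38 ± 0.653 FPKM against 2.95 ± 0.0953 FPKM (0.76, adjusted p = 2.22e-04). Cmas, which activates sialic acid for transfer, was lower (-0.24, adjusted p = 0.00357), a call lost with replicates 1 and 4 alone (adjusted p = 0.0613).

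Gcnt1 and Fut7 act in the synthesis of selectin ligands such as PSGL-1. Gcnt1 (ENSMUSG00000038843, chr19:17326141-17372844, minus strand) opens the core 2 branch of O-glycans. It had 1.79, 2.19, 2.67 and 1.83 FPKM in OVA-T4 + TGFβ cells, against 1.03, 0.933, 1.15 and 0.957 FPKM in OVA-T4 cells. Every treated library was above every untreated one, with replicate 3 the highest in both groups. The log2 fold change was 0.78 ± 0.14 (SE, limma adjusted p = 0.00132), on a scale that understates the change of a gene this low. The libraries held 226 to 362 Gcnt1 reads with TGFβ and 115 to 164 without, so that counting alone gives a CV of 6.02% and 8.52%, beside the 19.1% and 9.54% found among the replicates.

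Fut7 (ENSMUSG00000036587, chr2:25423267-25426374, plus strand) adds the fucose that completes sialyl Lewis x. It had 5.88, 7.67, 9.35 and 7.72 FPKM with TGFβ, against 4.84, 4.14, 5.21 and 5.59 FPKM without. The groups were separate by a narrow margin, with treated replicate 1 just above untreated replicate 4. The log2 fold change was 0.57 ± 0.14 (SE, limma adjusted p = 0.00765). It kept its direction but not its call under quantile normalization (0.37, adjusted p = 0.0519) and with replicates 1 and 4 alone (0.34, adjusted p = 0.147).

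Among their neighbours in the pathway, calls went both ways. Of 15 genes for O-glycan initiation, cores and sulfation, 3 were called higher, 3 lower and 9 did not pass (median log2 fold change -0.12). Galnt10, which helps to start O-glycans, was at 36.0 ± 1.52 FPKM with TGFβ against 11.3 ± 1.55 FPKM without (log2 fold change 1.64, limma adjusted p = 2.19e-06). Chst2, a sulfotransferase that acts on N-acetylglucosamine of selectin ligands, fell to 2.26 ± 0.295 FPKM against 8.61 ± 0.304 FPKM (log2 fold change -1.73, adjusted p = 1.74e-06). Of 12 other genes of fucosylation, 4 were higher, 3 lower and 5 did not pass (median 0.12). Fuca2, a fucosidase, had the largest change (33.8 ± 1.27 against 20.0 ± 1.61 FPKM, log2 fold change 0.74, adjusted p = 2.50e-05), and Slc35c2, a transporter linked to fucosylation, was lower (-0.55, adjusted p = 8.48e-05).

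The proteins that carry these glycans, with L-selectin, were called higher in 5 of 9 tested, lower in 1, and 3 did not pass (median log2 fold change 0.36). Selplg, which encodes PSGL-1, was at 500 ± 18.2 FPKM with TGFβ against 309 ± 11.4 FPKM without (log2 fold change 0.69, limma adjusted p = 5.20e-06). Cd44, the hyaluronan receptor, was at 123 ± 15.8 FPKM against 44.4 ± 10.0 FPKM (1.48, adjusted p = 6.16e-05). Cd24a, a small heavily glycosylated surface protein, was lower (-0.46, adjusted p = 0.00103).

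Ogt (ENSMUSG00000034160, chrX:101640060-101684351, plus strand) was the most abundant of the 10 in FPKM. It had 141, 120, 122 and 139 FPKM in OVA-T4 + TGFβ cells, against 104, 76.9, 78.4 and 111 FPKM in OVA-T4 cells. The lowest treated library was above the highest untreated one, and replicates 1 and 4 were again the high ones in both groups. Ogt rose with a log2 fold change of 0.51 ± 0.13 (SE, limma adjusted p = 0.00835). Mgea5, which encodes O-GlcNAcase and removes what OGT adds, was also higher, at 49.6 ± 1.14 FPKM with TGFβ against 28.5 ± 1.07 FPKM without (log2 fold change 0.79, adjusted p = 2.75e-06). It belongs to a list of 11 genes for O-GlcNAc removal and the hexosamine pathway, which makes the sugar donor UDP-N-acetylglucosamine, and of these 5 were higher, 1 lower and 5 did not pass (median 0.15). Amdhd2, which deacetylates N-acetylglucosamine 6-phosphate, rose most (41.8 ± 2.76 against 15.5 ± 1.30 FPKM, log2 fold change 1.40, adjusted p = 1.54e-06). Gnpnat1, which makes that same compound, was lower (12.7 ± 1.02 against 18.6 ± 1.52 FPKM, -0.54, adjusted p = 5.24e-04).

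Ogt and Man1a also varied together among replicates. Over the 8 libraries, the deviations of their log2 values from the group means had a Pearson r of 0.993, the highest of the 45 pairs of members. This is a description over libraries that share their scaling. Ogt in replicates 1 and 4 was 139 to 141 FPKM with TGFβ and 104 to 111 FPKM without, and in replicates 2 and 3 it was 120 to 122 FPKM with TGFβ and 76.9 to 78.4 FPKM without. The summed macrophage and monocyte markers were likewise high in replicates 1 and 4, at 47.7, 19.0, 11.0 and 39.1 FPKM with TGFβ against 13.5, 7.19, 4.84 and 13.6 FPKM without. Csf1r, a defining macrophage marker below the limit for testing, was 0.985, 0.295, 0.290 and 0.573 FPKM with TGFβ against 0.183, 0.0716, 0.0112 and 0.123 FPKM without, with no overlap and with replicates 1 and 4 again the high ones. The summed CD8 T cell, dendritic, CD4 T and NK, and stromal marker lists were also higher in replicates 1 and 4 than in 2 and 3 in both groups. The B cell list was not, and the stromal sum was nearly all Pecam1. The part of these cells and of the replicates in the levels of Ogt and Man1a was not tested. With replicates 2 and 3 alone 8 members were again higher and 1 lower, beside 3687 and 2379 of 12731 genes tested. With replicates 1 and 4 alone 6 members were higher, without Man1a and Fut7, and 1 lower, beside 3010 and 2224 of 12975 genes tested.

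**Figure D3:**
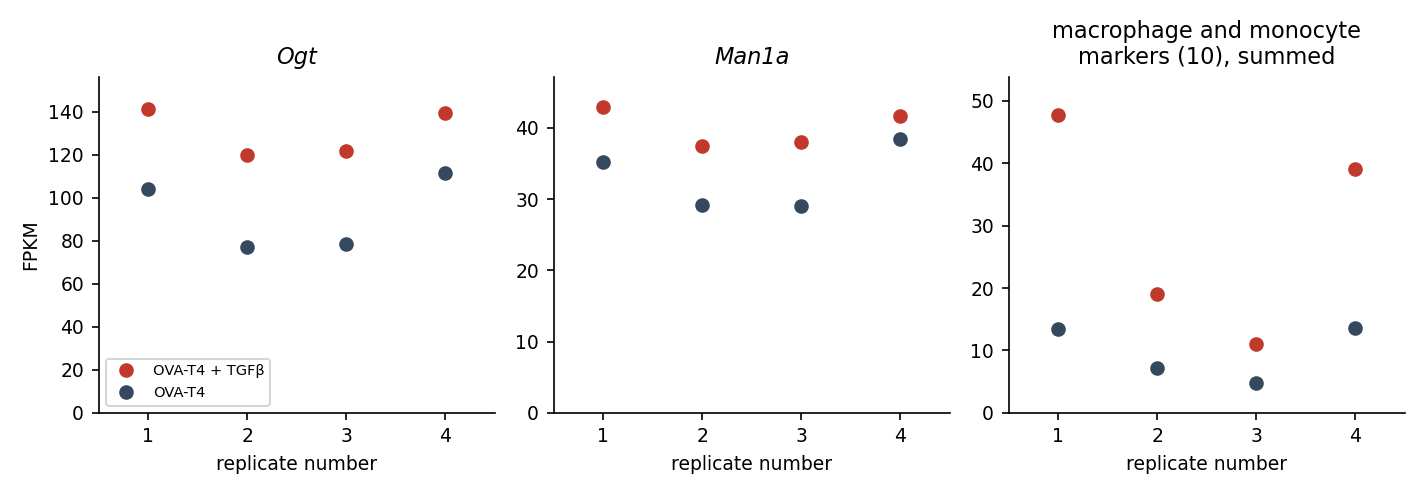
FPKM of Ogt, Man1a and the sum of 10 macrophage and monocyte markers (vertical axes, from 0) by replicate number (horizontal axis), in OVA-T4 + TGFβ cells (red) and OVA-T4 cells (dark blue); each point is 1 library. Replicates 1 and 4 lie above replicates 2 and 3 in both groups in all 3 panels, and TGFβ lies above its same-numbered OVA-T4 library throughout.

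The changes depended on the scaling of the libraries, and not equally for each gene. Over all genes, the median log2 fold change was moved by -0.11 with quantile normalization, by -0.095 with median of ratios scaling and by 0.040 with TPM scaling. The share of calls that were higher was 60.3% as deposited, 47.4% with median of ratios scaling, 46.8% with quantile normalization and 65.5% with TPM scaling. Under these scalings 7 members were called higher with median of ratios, 6 with quantile normalization and 8 with TPM. St3gal4 was the 1 member called lower in each. All genes called higher numbered 3122 of 12862 tested with median of ratios, 2987 of 12879 with quantile normalization and 4329 of 13357 with TPM. Those called lower numbered 3462, 3400 and 2281 in the same order. With quantile normalization the log2 fold change of Gcnt1 was 0.51, against 0.78 as deposited, while that of Ogt was 0.58, against 0.51 as deposited. Relative to the median of all genes tested, the log2 fold change was 1.33 for Mgat5, 0.70 for Gcnt1, 0.21 for Man1a, -0.0066 for St3gal1 and -0.55 for St3gal4.

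**Figure D4:**
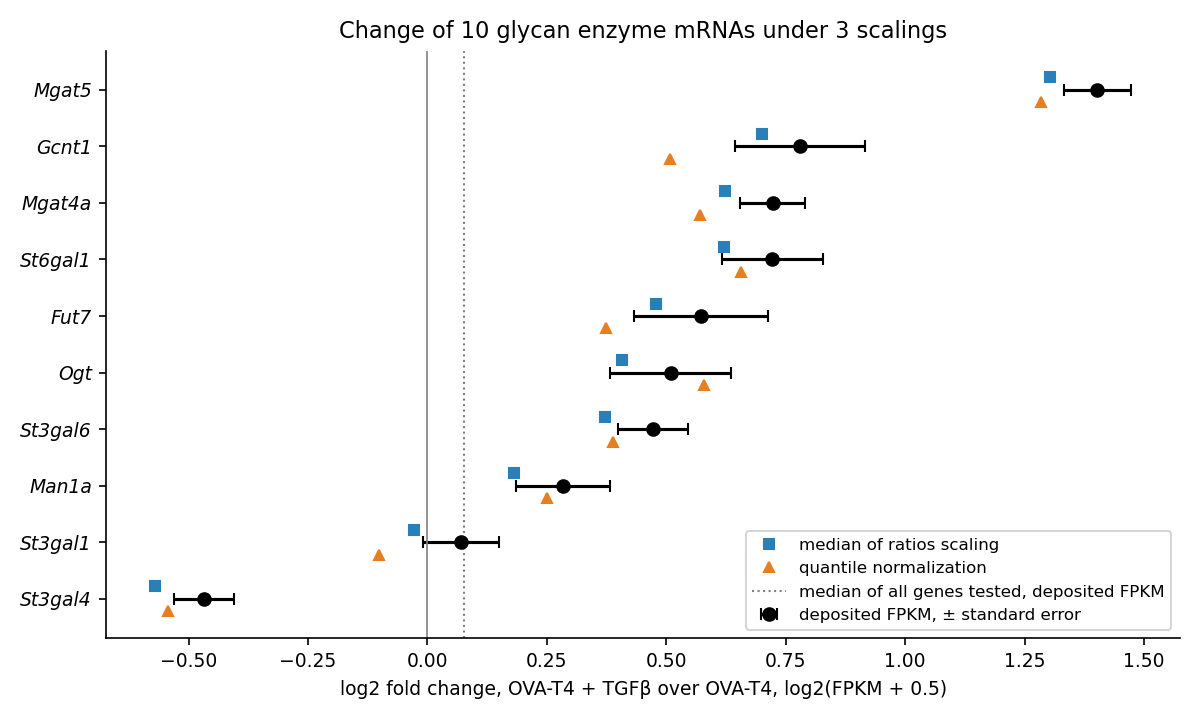
Log2 fold change of the 10 enzymes, OVA-T4 + TGFβ over OVA-T4, on log2(FPKM + 0.5) (horizontal axis): circles with bars are the deposited values ± SE, squares median of ratios scaling and triangles quantile normalization. St3gal1 crosses 0 between the scalings, Mgat5 stays the highest at 1.28 to 1.40 and St3gal4 the lowest at -0.57 to -0.47.

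In order of FPKM with TGFβ, the members ran Ogt, Man1a, St6gal1, St3gal6, Mgat5, St3gal4, Mgat4a, St3gal1, Fut7 and Gcnt1. Neighbours from Man1a to Mgat5 overlapped in their libraries, as did St3gal1 and Fut7. Without TGFβ the order was Ogt, Man1a, St3gal4, St6gal1, St3gal6, Mgat5, Mgat4a, St3gal1, Fut7 and Gcnt1. There, Man1a overlapped with St3gal4, St6gal1 with St3gal6, and Mgat5, Mgat4a and St3gal1 with each other. FPKM ranks rest on the lengths the authors used, which were solved from the values as 1010 (St3gal6) to 4985 bases (St3gal1), while all exons of a member together span 2355 to 12881 bases in GENCODE M21. With those exon lengths the FPKM of St3gal6 would be 4.18 with TGFβ and 2.98 without, and that of St3gal4 14.1 and 19.6, whereas Ogt stays the highest and Gcnt1 the lowest. The ratio of a gene's FPKM between groups does not depend on its length, but a fold change on log2(FPKM + 0.5) does to some extent in the least expressed genes, such as Gcnt1.

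Outside the pathway, genes whose log2 levels followed Mgat5 closely over the 8 libraries included Elf4 and H2-DMa, each with a Pearson r of 0.999. Elf4, a transcription factor of CD8 T cell quiescence, was at 51.0 ± 0.450 FPKM with TGFβ against 31.8 ± 1.03 FPKM without. H2-DMa, a chaperone of class II antigen loading, was at 65.7 ± 2.93 FPKM against 12.3 ± 1.46 FPKM. The likeness rests largely on the difference between the groups, which these genes share.

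Across all 9 lists of other glycosylation genes, 129 of 165 were tested, of which 36 (27.9%) were called higher, 31 (24.0%) lower and 62 did not pass, with a median log2 fold change of 0.018. This balance turned with the scaling, to 29 higher and 42 lower with median of ratios and 28 higher and 42 lower with quantile normalization. The list of galactose and N-acetyllactosamine chains had 7 of 14 higher, 1 lower and 6 that did not pass (median 0.26). Its largest changes were in B3galt4, a galactosyltransferase of gangliosides (9.13 ± 0.823 against 2.60 ± 0.561 FPKM, log2 fold change 1.65, limma adjusted p = 1.81e-05), and B4galt7, which builds the linker of proteoglycan chains (32.7 ± 1.02 against 14.6 ± 1.28 FPKM, 1.14, adjusted p = 3.05e-06). B3galt6, the next enzyme of that linker, was lower (-0.30, adjusted p = 0.0440). That call was lost without any 1 of the treated libraries or OVA-T4 replicate 2 or 4 (adjusted p of 0.0534 to 0.106). No filter (0.107) and TPM scaling (0.0688) also lost it, as did further alternatives, with the highest adjusted p of B3galt6 at 0.232. B4galt1, the main galactosyltransferase of N-acetyllactosamine and named after its values were seen, was at 87.5 FPKM with TGFβ against 42.3 FPKM without (1.04, adjusted p = 3.27e-06).

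At the other end of the pathway, assembly of the lipid-linked oligosaccharide and its transfer to protein had 14 of 37 genes lower, 5 higher and 18 that did not pass (median log2 fold change -0.055). The changes were small. Alg8, a glucosyltransferase, fell to 33.9 ± 4.19 FPKM against 44.3 ± 2.67 FPKM without TGFβ (-0.39, limma adjusted p = 0.00535). Dpagt1, which starts the oligosaccharide, fell to 15.2 ± 0.705 FPKM against 19.6 ± 2.17 FPKM (-0.35, adjusted p = 0.00576). Alg12, a mannosyltransferase, was higher (0.33, adjusted p = 0.00758). The call of Alg12 was lost with quantile normalization (0.18, adjusted p = 0.0574) and those of Alg12 and Dpagt1 with replicates 1 and 4 alone (0.0501 and 0.0587). Alg12 also lost its call under a further alternative, with its highest adjusted p at 0.0660.

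**Figure D5:**
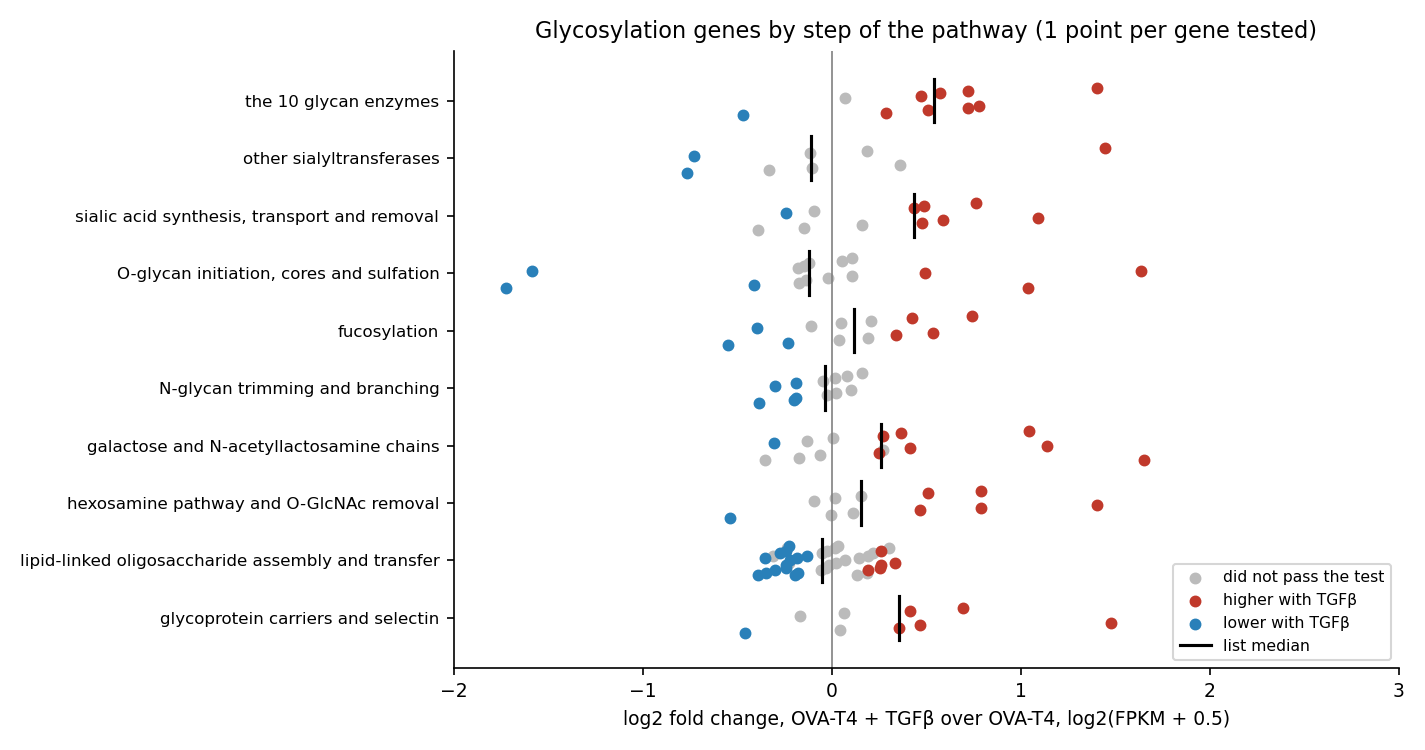
Log2 fold change, OVA-T4 + TGFβ over OVA-T4, on log2(FPKM + 0.5) (horizontal axis) for the 10 enzymes and 9 lists of other glycosylation genes, with 1 point per gene tested and a black bar at each list's median. Red genes were called higher, blue lower and grey did not pass; N-glycan trimming and branching has 0 red points, whereas lipid-linked oligosaccharide assembly lies close to 0 with 14 blue and 5 red points.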

How the data were processed

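Total RNA from the 8 samples was extracted, and libraries were prepared from oligo(dT)-enriched mRNA and sequenced at Novogene. Per the submitters' processing notes, CASAVA, HISAT2 and HTSeq were used with the mouse build mm10. Versions, strand setting and gene lengths are not given in the sources used here. The authors deposited FPKM values per gene. The study's differential expression test on counts was not used.

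Gene names came from the deposited table and positions from GENCODE M21 (GRCm38), which held 98.9% of the 47069 identifiers. Read counts were recovered from the FPKM steps: 100.0% of the 23842 genes above 0 came out whole (within 0.005 reads, or a share of 9e-08 of larger counts). Lengths up to 120000 bases were tried, so a gene above 0 in few libraries can come out whole by chance. Of the 15418 genes above 0 in all 8 libraries, 100.0% came out whole. FPKM was tested with limma 3.58.1 in R 4.3.3 (lmFit, and eBayes with a trend) on log2(FPKM + 0.5), for genes averaging 0.5 FPKM or more, two-sided, with Benjamini-Hochberg adjustment. limma voom on the recovered reads called 4031 genes higher and 2620 lower, against 3955 and 2607 here. Other pseudocounts (0.1 and 1), filters, scalings, a replicate block, each library left out and pairs of replicates alone were tried. The fit was tested on simulated data. Python 3.11.15 with pandas 2.3.3 was used for the other values.

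The fit has no replicate block. The block was an alternative, with pairing read from the values and not from the labels: the deviations of same-numbered libraries from their group means correlated with r of 0.179, 0.205, 0.419 and 0.505, all over 0.1, whereas differently numbered pairs had -0.489 to 0.254, some of them above those of numbers 1 and 2.

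The members and lists were chosen with earlier results of these data known. All members are named. From each list the 2 called genes with the largest change are named, and the largest in the other direction where there is one, together with the 3 genes most like the member that changed most, of which 1 is not reported here. Cell types were checked by the listed markers only.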

Additional observations from a re-analysis of the deposited data

Results flagged for a closer look

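The check covered 86 groups of 4 libraries. Each was the FPKM of a member or named list gene, a ratio of members or a summed marker list, in 1 condition. Of these groups, 3 held a library whose gap to the nearest other exceeded Dixon's critical share of the whole range of the group. Chance gives this in about 1 in 20 groups. St3gal4 in OVA-T4 + TGFβ replicate 3 was 19.1 FPKM, below the 20.6 to 20.8 FPKM of the other treated libraries (0.861 of the range). All 4 OVA-T4 libraries were higher than these. Siae, the sialic acid esterase, was 3.09 FPKM in OVA-T4 replicate 1, above 2.90 to 2.91 FPKM in the others (0.958 of the range). The CD4 T and NK cell markers summed to 8.11 FPKM in OVA-T4 replicate 4, above 4.88 to 5.40 FPKM in the other OVA-T4 libraries (0.839 of the range). That library also had the highest Man1a and Ogt of its group.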

How the results depend on the processing

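Of 210 values of the 10 members under the alternatives, 195 kept direction and side of the threshold, 10 lost the call (8 of Man1a and 2 of Fut7) and 5 changed sign, all of St3gal1, which was never called: -0.027 with median of ratios scaling and -0.10 with quantile normalization, each with and without the replicate block, and -0.047 with replicates 1 and 4 alone. Members called higher numbered 6 to 8, and 1 was lower throughout. With a library left out, 7 to 8 members were higher and 1 to 1 lower, 32 to 40 other glycosylation genes were higher and 26 to 31 lower, and 3317 to 4065 of all genes were higher and 2235 to 2556 lower. The replicate block called 4569 genes higher and 3266 lower, 8 members higher and 1 lower, and 43 other glycosylation genes higher and 37 lower, and changed no call of a member. With the block and median of ratios scaling, 4278 genes were lower, and 51 other glycosylation genes against 31 as deposited. With the block and quantile normalization 4133 genes were lower. The cause was not tested. Of 483 values of the 23 named list genes 467 stood, and 16 lost the call, 10 of them of B3galt6 and the others of Alg12, Cmas, Man2a1 and Dpagt1. The block with scaling, voom and the pairs of replicates alone were chosen after seeing the data. Depth limits Gcnt1 most, at 115 to 362 reads a library. In the data used here, protein, glycans and resting cells were not measured.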
